A study of Homo sapiens with 12 samples.

Results

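The course of gene expression in HK-2 cells under the compound labelled Di was read from 6 of the 12 arrays of the series, 3 taken at 12 h and 3 taken at 48 h of treatment, chosen by their titles. HK-2 is a human cell line from the proximal tubule of the kidney, immortalised with the E6 and E7 genes of a human papillomavirus, whose products act on p53 and RB. All groups were grown in a DMEM and Ham's F12 mixture with epidermal growth factor, hydrocortisone, insulin, transferrin and selenite, seeded the day before and treated near confluence. The other 6 arrays, 3 at 12 h and 3 at 48 h, came from cells given vehicle and serve here as background. The study asked for expression signatures of kidney toxicity. The identity and the dose of Di are not given in the sources used here. The labels call the 3 samples of a group biological replicates, without saying whether they came from separate cultures on separate days, so a p-value measures the spread between these samples.

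Several stress programmes of epithelial cells are relevant to such a time course. NRF2 is a transcription factor that KEAP1 holds at a low level until electrophiles or oxidants modify KEAP1; it then drives enzymes of glutathione synthesis, quinone reduction and NADPH supply through antioxidant response elements. Protein misfolding in the endoplasmic reticulum (ER) activates IRE1, PERK and ATF6, which raise chaperones, while PERK and the amino acid sensor GCN2 share ATF4 as their effector. Proliferation genes follow 2 broad promoter classes, E2F sites for DNA replication and the cell cycle genes homology region (CHR) for mitosis.

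Expression is given as log2 values of the array. At the gene level 10626 genes were tested, each by 1 probe set with log2 values over 4 on 3 arrays or more. Array medians lay between 2.97 and 3.06, and the number of arrays limits the precision. Correlations across probe sets lay between 0.995 and 0.998 among the Di arrays at 12 h, between 0.996 and 0.998 among those at 48 h, and between 0.971 and 0.974 from 12 h to 48 h. Among the Di arrays, the second early replicate deviated most from the mean of its group (root mean square 0.252, the other 5 between 0.130 and 0.182). The gap between the 3′ and 5′ control probe sets of beta-actin, a sign of RNA integrity, was 1.22 ± 0.239 at 12 h and 1.41 ± 0.0776 at 48 h (log2, SD, n = 3, two-sided exact permutation p = 0.3, the smallest possible being 0.1). In vehicle the same gap was 1.71 ± 0.178 at 12 h and 1.33 ± 0.128 at 48 h (exact permutation p = 0.1), and its part in the vehicle changes was not tested.

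The labelled cell type was only partly borne out by its markers. All 6 epithelial markers were measured (KRT7, KRT8, KRT18, KRT19, CDH1 and EPCAM), but 2 of 20 proximal tubule genes on the array passed the level filter, DPP4 and SLC3A1. The sodium-glucose transporters SLC5A1 and SLC5A2, the endocytic receptors LRP2 and CUBN and the water channel AQP1 had group means under the log2 value of 4 throughout. None of 11 endothelial and leukocyte markers passed. Of 9 fibroblast markers 3 passed, DCN, LUM and ACTA2, while COL1A2, COL3A1, PDGFRA, PDGFRB, THY1 and POSTN did not.

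Between 12 h and 48 h of Di treatment 6943 of the 10626 genes changed at an adjusted p under 0.05 (65.3%), 3297 of them higher (31%) and 3646 lower (34.3%). Of these genes 2392 moved at least 2-fold, 1032 upwards and 1360 downwards. The 3 late values lay wholly above or below the 3 early ones for 7310 genes (68.8%), above for 33.8% and below for 35%. The median change over all genes was -0.02. In vehicle over the same hours 5621 genes changed (52.9%), 2323 of them higher (21.9%) and 3298 lower (31%). Of these genes 1159 moved at least 2-fold. The 2 courses share no array. Across genes, which are not independent replicates, their changes correlated with a Pearson r of 0.715 and a Spearman rho of 0.667. Of the Di calls 63.4% were also called in vehicle, and of the vehicle calls 78.3% were also called under Di. In bulk lysates fewer cells of a kind and less RNA per cell cannot be told apart.

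The difference of the courses, the Di change minus the vehicle change, was itself called for 4067 genes (38.3%), 2100 higher (19.8%) and 1967 lower (18.5%) under Di. These shares of all genes, with those of each course, are the background for the list counts below. By these 3 tests 3988 genes moved in the same direction in both courses, and for 1335 of them the Di change was the larger by the test of the difference, against 208 where it was the smaller. A further 1473 genes changed under Di, were not called in vehicle and differed between the courses, 825 of them higher and 648 lower. Both courses were called with opposite sign for 414 genes, 254 higher and 160 lower under Di. Finally, 587 genes moved in vehicle, were not called under Di and differed between the courses.

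**Figure D1:**
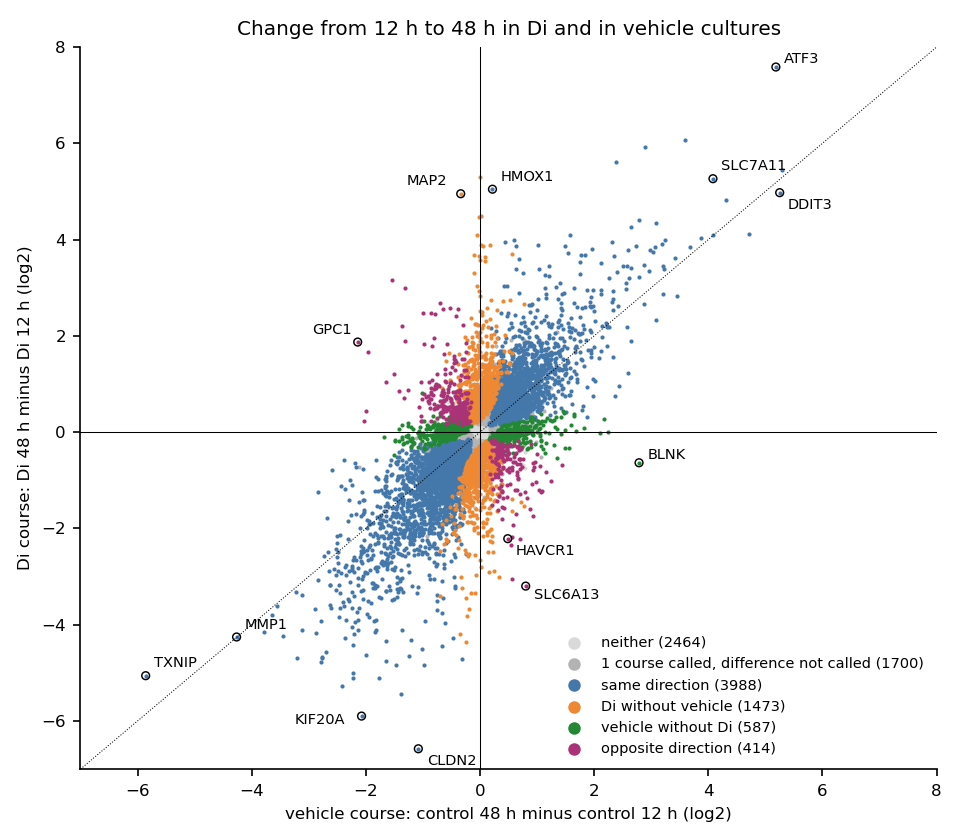
The log2 change from 12 h to 48 h under Di (vertical) against the same change in vehicle (horizontal), 1 point per gene for 10626 genes, coloured by whether the courses were called in the same direction, in opposite directions or on 1 side with a called difference, and grey otherwise; control stands for vehicle, and the dotted line marks equal change. The courses had the same sign for 74.5% of genes, while MAP2 and HMOX1 rise at vehicle changes near 0, GPC1 and HAVCR1 lie in the opposite-direction quadrants, and CLDN2 is the lowest point.

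The largest increase was that of ATF3, a stress-induced transcription factor. Its 3 arrays read 5.24, 4.21 and 5.51 at 12 h and 12.60, 12.59 and 12.52 at 48 h. All arrays at 48 h therefore lay above all at 12 h, and the change of 7.58 ± 0.277 (SE) was a 192-fold rise (adjusted p = 1.15e-09). In vehicle ATF3 rose by 5.18 ± 0.277, and the difference was called (adjusted p = 0.000659). Next came the lysosomal membrane protein LAMP3 (at least 24.5-fold), the secreted glycoprotein STC2 (at least 57.7-fold), CLIP4 (at least 37.3-fold), the inhibin subunit INHBE (43.7-fold), the pseudogene NMRAL2P (at least 9.47-fold), the cystine transporter SLC7A11 (38.4-fold), the haem oxygenase HMOX1 (33-fold), DDIT3, which encodes the ER stress factor CHOP (31.4-fold), the microtubule-associated protein MAP2 (30.9-fold), BEX2 (28.4-fold) and the repressor SNAI2 (at least 7.96-fold). A fold written as at least is measured against a log2 value of 4, because the mean of the dimmer group lay under it; the ranking is on the log2 change.

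The largest decrease was that of CLDN2, the claudin that forms the cation pore of proximal tubule tight junctions. It read 9.53, 9.88 and 9.50 at 12 h and 3.10, 3.06 and 3.01 at 48 h. The groups lay far apart, the fall of 6.58 on the log2 scale was at least 49.8-fold (SE 0.114, adjusted p = 9.83e-12), and in vehicle CLDN2 fell by 1.08 only. Also among the 12 largest falls were the mitotic kinesin KIF20A (at least 51.3-fold), the death ligand TNFSF10 (43.6-fold), LRRN4 (38.4-fold), the antimicrobial peptide DEFB1 (34.7-fold), the ribonucleotide reductase subunit RRM2 (34.4-fold), TXNIP, an inhibitor of thioredoxin and of glucose uptake (at least 10.6-fold), the secreted matrix protein CTHRC1 (at least 31.4-fold), the kidney cadherin CDH6 (28.7-fold), FRMD4B (at least 17.7-fold), the histone chaperone ASF1B (at least 23.9-fold) and SLC38A11 (at least 16.1-fold). The Di fall was larger than the vehicle fall by the test of the difference for 11 of these 12 genes. TXNIP fell by 5.06 under Di and by 5.86 in vehicle, from 7.51, 7.53 and 7.18 at 12 h under Di and 9.52, 9.78 and 9.57 in vehicle, so the vehicle cells started higher. Both late means lay under the level filter (2.34 and 3.77), so the falls are bounds of at least 10.6-fold and at least 49.3-fold, and the size of their difference is not measured.

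**Figure D2:**
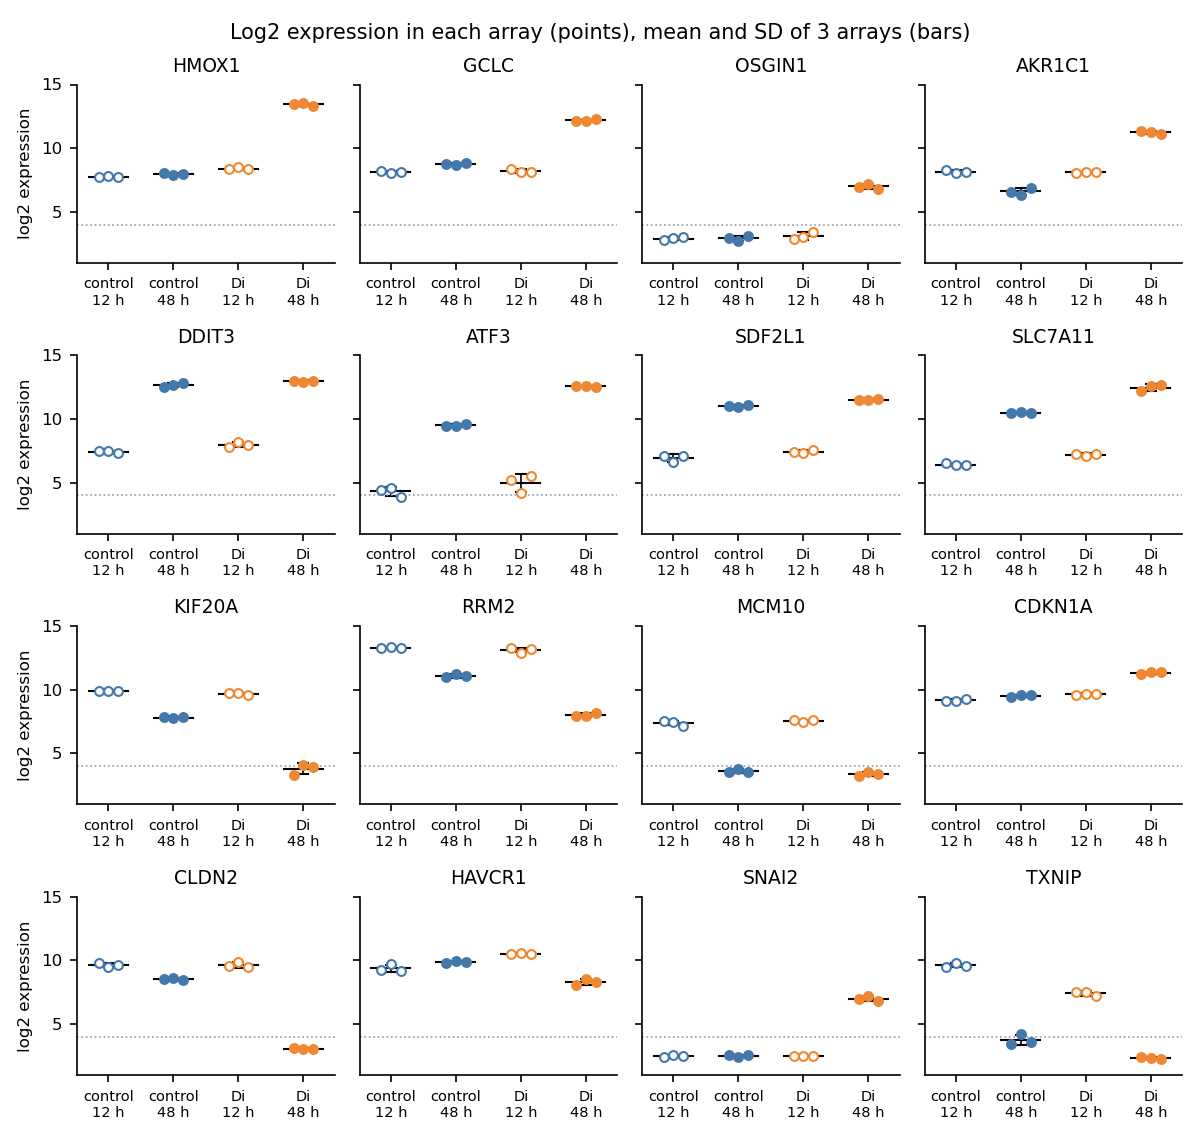
Log2 expression of 16 genes in every array, 3 dots per group for Di and vehicle at 12 h and 48 h, with the group mean and SD; the dotted line marks the log2 value of 4 used as the level filter. HMOX1, OSGIN1 and SNAI2 rise under Di while their vehicle dots stay near the 12 h level, DDIT3 and SDF2L1 reach nearly the same level in both, and AKR1C1 and HAVCR1 move in opposite directions.

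The ER chaperone and unfolded protein response genes rose together in treated cells. Of 19 measured genes 19 were higher at 48 h and none lower, with a median change of 2.59 against -0.02 over all genes. The same 19 rose in vehicle, with a median of 1.97, and the rise was the larger under Di for 8 by the test of the difference. SDF2L1, a component of an ER chaperone complex, read 7.37, 7.33 and 7.55 at 12 h and 11.52, 11.47 and 11.55 at 48 h, a 17.2-fold rise. Its change of 4.10 ± 0.124 stood beside 4.07 ± 0.124 in vehicle. ERN1, the gene of the sensor IRE1, rose 15.8-fold, the chaperone HYOU1 13.9-fold and the co-chaperone DNAJB9 10.9-fold. HSPA5, the main ER chaperone BiP, rose 4.26-fold from an already high 13.22, 13.24 and 13.35 to 15.26, 15.39 and 15.42. Of these genes HYOU1 alone rose more under Di than in vehicle by the test of the difference (0.81 ± 0.131, adjusted p = 0.000602).

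A part of these ER promoters holds an element that is rare elsewhere, and it is shown for that reason. The ER stress response element (ERSE), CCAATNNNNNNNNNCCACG on either strand, stood in 6 of the 18 promoters available among the called members (33.3%) and in 13 of the 8818 promoters of tested genes (0.147%). A promoter is taken from RefSeq (GRCh38.p14) as 250 bases before to 50 after the start. The ERSE contains CCAAT, which alone was found in 17 of these 18 promoters (94.4%) and in 37.4% of the promoters of tested genes. Capitals mark the element in 4 of the 6 promoters, each line being read 5′ to 3′ on the strand of the gene, with the element or its reverse complement.
HSPA5, chr9:125241371-125241429, minus strand: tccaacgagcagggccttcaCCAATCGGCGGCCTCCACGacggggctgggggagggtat
XBP1, chr22:28800583-28800641, minus strand: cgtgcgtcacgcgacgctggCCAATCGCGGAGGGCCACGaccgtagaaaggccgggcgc
HSP90B1, chr12:103930301-103930359, plus strand: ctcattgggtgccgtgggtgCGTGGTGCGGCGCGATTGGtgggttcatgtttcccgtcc
CRELD2, chr22:49918534-49918592, plus strand: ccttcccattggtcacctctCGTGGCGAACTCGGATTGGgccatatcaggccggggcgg
The transcription factor XBP1 rose 3.84-fold, the ER chaperone HSP90B1 6.04-fold and the ER-resident CRELD2 10.2-fold under Di. The match is a description of the letters, and binding was not measured.

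Genes of the ATF4 and amino acid response moved in the same way. Of 22 measured 19 rose and 1 fell (ATF5, -0.31), with a median change of 2.13, and 19 rose in vehicle with a median of 1.70. For 10 of them the change was more positive under Di by the test of the difference, and for PHGDH, an enzyme of serine synthesis, it was less so, a call lost under 5 of the 19 alternatives with this test. The ATF5 call was lost under 5 of 20 alternatives, among them those without the early Di replicate 1 and the late Di replicates 2 or 3; without the early Di replicate 2 a count of 2 fell. DDIT3 read 7.82, 8.16 and 7.97 at 12 h and 13.01, 12.86 and 13.01 at 48 h. The 2 sets of arrays lay apart by more than their spread, and the rise of 4.97 ± 0.103 stood beside 5.25 ± 0.103 in vehicle (difference -0.28 ± 0.146, adjusted p = 0.162, not called). The stress protein NUPR1 likewise rose by 4.12 ± 0.181 under Di and 4.71 ± 0.181 in vehicle (adjusted p of the difference 0.0933). In contrast STC2 rose by 5.93 ± 0.171 against 2.89 ± 0.171. The amino acid transporters SLC7A5 (4.26 against 2.65) and SLC3A2 (3.90 against 3.19), which pair in the membrane, rose more under Di, as did the asparagine synthetase ASNS (3.47 against 2.88) and the glutathione-degrading enzyme CHAC1 (3.51 against 2.13), though the CHAC1 difference lost its call under 4 of 19 alternatives. ATF4 itself rose by 1.67 under Di and 1.66 in vehicle.

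Further shared changes lay outside these lists. Among genes called in the same direction without a called difference, the largest rises under Di were those of INHBE (5.45 ± 0.11, vehicle 5.29 ± 0.11), DDIT3, NUPR1, SDF2L1 and ERO1B, an ER oxidoreductase (4.03 ± 0.277, vehicle 3.87 ± 0.277). The largest falls were those of the collagenase MMP1 (at least 11.3-fold under Di and at least 10.6-fold in vehicle), the replication factor MCM10, the hyaluronan-binding TNFAIP6, the sodium channel SCN3A and the condensin subunit NCAPH. MMP1 read 7.28, 7.57 and 7.63 at 12 h and 2.96, 3.45 and 3.31 at 48 h, all 3 late arrays under the level filter. For MMP1, MCM10, TNFAIP6 and SCN3A the late means of both courses lay under it, so the test cannot compare the sizes of these falls.

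Mitosis genes fell without exception. All 30 measured genes were lower at 48 h under Di, with a median change of -2.99, and all 30 were also lower in vehicle, with a median of -2.05. For 25 of the 30 the fall was the larger under Di by the test of the difference; the other 5 were PLK1, KIF4A, KIF23, CENPF and ECT2. KIF20A, needed for cytokinesis, read 9.70, 9.73 and 9.61 at 12 h and 3.29, 4.11 and 3.94 at 48 h. It fell by 5.90 on the log2 scale under Di and by 2.08 in vehicle. CENPE, a kinetochore motor, fell by 4.66 to late values of 2.34, 4.005 and 4.22, which are more spread than the early ones. KIF11, the spindle motor, fell by 3.84 (14.3-fold) and BIRC5, the chromosomal passenger survivin, by 3.73. MKI67, the proliferation marker, fell from 9.08, 9.39 and 8.85 to 5.75, 5.87 and 5.66, a 10.2-fold decrease.

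The CHR is the element these promoters are known for. The letters TTTGAA on either strand stood in 18 of 24 available promoters of the called mitosis genes (75%) and in 9.55% of the 8818 promoters of tested genes, or 15.4% of all 27305 promoters. CCAAT was found in 18 of the 24 (75%) beside 37.4%. The upstream parts of 4 promoters are printed for their position close to the start, with the CHR or its reverse complement in capitals.
KIF11, chr10:92593082-92593127, plus strand: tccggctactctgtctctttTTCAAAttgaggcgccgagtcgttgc
MKI67, chr10:128126427-128126490, minus strand: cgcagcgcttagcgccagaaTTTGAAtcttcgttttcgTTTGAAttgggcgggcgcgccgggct
PLK1, chr16:23678840-23678885, plus strand: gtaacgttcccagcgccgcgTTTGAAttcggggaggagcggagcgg
CCNB2, chr15:59105097-59105142, plus strand: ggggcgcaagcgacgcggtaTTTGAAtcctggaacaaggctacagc
The motif nearest to the start ended 22 bases before it in KIF11 and 23 bases before it in MKI67, PLK1 and CCNB2. PLK1, the mitotic kinase, fell by 3.27 ± 0.318 and the cyclin CCNB2 by 2.29 ± 0.0808.

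DNA replication genes followed. Of 32 measured 30 fell and 1 passed as higher under Di (RFC5, 0.36 ± 0.144), with a median change of -2.54, beside 29 falls and a median of -1.49 in vehicle. The fall was the larger under Di for 24 genes by the test of the difference. The RFC5 call was lost under 12 of 20 alternatives, 9 of them fits without 1 array (lowest value 0.17), its direction turned when all its probe sets were averaged, and its 2 other probe sets were both called in the opposite direction. RRM2, which supplies deoxynucleotides, read 13.28, 12.91 and 13.16 at 12 h and 7.97, 7.90 and 8.17 at 48 h. It fell by 5.11 under Di and by 2.22 in vehicle. The helicase subunits MCM2 to MCM7 all fell, from 2.46 for MCM2 to 4.11 for MCM7 on the log2 scale, and each of the 6 fell more under Di. MCM10, which read 7.58, 7.43 and 7.61 and then 3.25, 3.52 and 3.41, fell at least 11.6-fold under Di and at least 10.4-fold in vehicle, with both late means under the level filter. CDC6, the helicase loader, did not pass the test (-0.20).

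E2F sites, searched as TTTGGCGC or TTTCCCGC on either strand, stood in 14 of 28 available promoters of the called replication genes (50%) and in 3.81% of the promoters of tested genes. TTTGAA was found in 1 of the 28 (3.57%), while the E2F letters were found in 1 of the 24 mitosis promoters (4.17%). The 2 lists fell together and differed in these 2 elements in this window. CCAAT was frequent in both, in 15 of the 28 replication promoters (53.6%) and 18 of the 24 mitosis promoters (75%), beside 37.4%. Capitals mark the E2F letters or their reverse complement.
MCM6, chr2:135876506-135876615, minus strand: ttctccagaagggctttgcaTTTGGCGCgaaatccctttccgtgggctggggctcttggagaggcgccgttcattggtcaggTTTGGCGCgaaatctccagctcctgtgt
GINS2, chr16:85688958-85689005, minus strand: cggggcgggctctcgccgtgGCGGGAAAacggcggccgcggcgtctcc
CDT1, chr16:88803734-88803781, plus strand: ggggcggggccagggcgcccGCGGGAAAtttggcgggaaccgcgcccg
PCNA, chr20:5126654-5126701, minus strand: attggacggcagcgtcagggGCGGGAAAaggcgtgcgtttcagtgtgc
MCM6 fell 9.62-fold, from 11.85, 11.80 and 11.85 to 8.54, 8.55 and 8.61. GINS2, a helicase cofactor, fell by 3.91, the licensing factor CDT1 by 2.44 and the sliding clamp PCNA by 2.10 on the log2 scale.

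Repair and cell cycle entry genes were lower as well. Of 13 genes of homologous recombination and Fanconi repair 12 fell under Di and 12 in vehicle, led by the helicase BRIP1 (-4.69, at least 18-fold) and BARD1, the partner of BRCA1 (-4.27, 19.3-fold). Of 19 G1 cyclins, kinases and inhibitors 13 fell and 1 rose under Di, where 34.3% of all genes fell and 31% rose. In vehicle 12 fell and 0 rose, with a median of -0.89 beside -0.86 under Di. The cyclin CCNE2 fell 24.7-fold, by 4.63 under Di and 2.00 in vehicle. The single riser was the CDK inhibitor CDKN2B, which read 5.55, 5.00 and 5.42 and then 7.78, 7.57 and 7.72, a 5.17-fold rise, while in vehicle it was -0.16 ± 0.261. CDKN1A, the p21 inhibitor, rose 3.2-fold from 9.57, 9.69 and 9.69 to 11.22, 11.38 and 11.39, and the rise exceeded that in vehicle (1.68 against 0.35, adjusted p of the difference 4.31e-06). Tubulins went with the cycle genes: 13 of 17 tubulin and microtubule genes fell under Di, and 13 fell in vehicle. Under Di the microtubule-destabilising STMN1 fell 9.89-fold and TUBA1A, whose family members share sequence that probes can cross-read, 9.43-fold. MAP2 rose instead, from 7.03, 5.97 and 6.52 to 11.43, 11.57 and 11.37, with -0.34 ± 0.23 in vehicle. Of 7 polyadenylated histone genes 4 fell under Di, among them H2AX (-2.59), and H2AC6 rose (4.40). In vehicle 4 of the 7 fell and 2 rose.

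**Figure D3:**
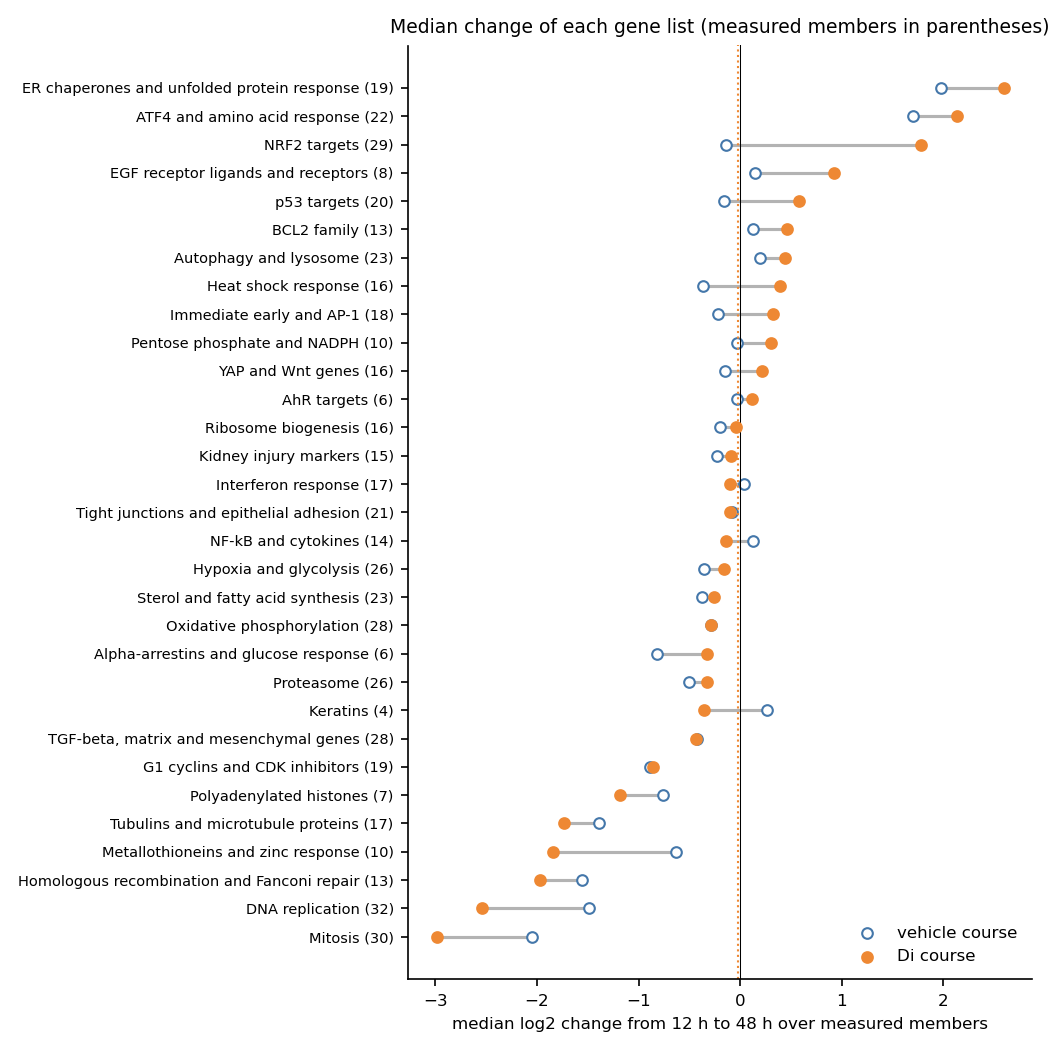
Median log2 change from 12 h to 48 h of the measured genes of each list, under Di and in vehicle, joined by a line; the dotted line is the median of all genes under Di. The mitosis, DNA replication and ER lists lie far from 0 in both courses, and the NRF2 list lies at 1.78 under Di and at -0.14 in vehicle.

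NRF2 targets rose under Di and mostly did not rise in vehicle. Of 32 listed genes 29 were measured, 26 rose and 2 fell under Di, with a median change of 1.78, whereas 7 rose and 14 fell in vehicle, with a median of -0.14. The change was more positive under Di for 28 of the 29 by the test of the difference, where 19.8% of all genes were. In 11 genes the 2 courses were called in opposite directions. The 2 that fell under Di were the carbonyl reductase CBR1 (-0.34) and the peroxiredoxin PRDX1 (-0.21), whose call was lost under 8 of 20 alternatives, including those without the early Di replicate 2, the late Di replicates 2 or 3 and the late vehicle replicate 1. CBR3 did not pass the test (-0.02).

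HMOX1, which degrades haem, read 8.35, 8.49 and 8.35 at 12 h and 13.45, 13.57 and 13.31 at 48 h. The rise of 5.05 ± 0.0807 was 33-fold (adjusted p = 6.29e-12) and stood beside 0.22 ± 0.0807 in vehicle. Glutathione synthesis rose at several steps: its rate-limiting catalytic subunit GCLC went from 8.35, 8.11 and 8.13 to 12.16, 12.15 and 12.26 (15.9-fold) and its modifier subunit GCLM from 10.06, 10.26 and 10.09 to 12.78, 12.73 and 12.57 (5.9-fold). SLC7A11, which imports cystine for this pathway and is also an ATF4 target, rose by 5.26 ± 0.114 under Di and by 4.08 ± 0.114 in vehicle, so most of its rise was shared. The sulfiredoxin SRXN1 rose 12.8-fold, the quinone reductase NQO1 5.45-fold and the thioredoxin reductase TXNRD1 5.3-fold. In vehicle NQO1 fell by 0.78, SRXN1 was at -0.10 without a call, and TXNRD1 rose by 0.47. OSGIN1, an oxidative stress gene, was under the level filter at 12 h (2.88, 2.99 and 3.43) and reached 6.98, 7.21 and 6.80. AKR1B10, an aldo-keto reductase, was also under it (2.36, 2.41 and 2.42) and reached 5.37, 6.67 and 6.14.

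Members with smaller rises covered the rest of the programme. The autophagy receptor SQSTM1 rose by 2.29, the epoxide hydrolase EPHX1 by 1.97, the export pump ABCC3 by 1.63, the glutathione reductase GSR by 1.52 and the malic enzyme ME1 by 1.48. The pentose phosphate enzymes TKT (1.13), PGD (0.91) and TALDO1 (0.75) rose, and KEAP1 itself rose by 0.54. NFE2L2, the gene of NRF2, rose by 0.67 under Di and by 0.55 in vehicle. Of 10 further genes of pentose phosphate and NADPH metabolism 5 rose and 4 fell, beside 31% and 34.3% of all genes. MTHFD2 (1.46), IDH1 (1.20) and ME2 (1.04) were higher under Di and the mitochondrial IDH2 was lower (-1.56). In vehicle 3 of these 10 rose, the highest change being 1.535, and 3 fell. By the test of the difference 3 had a more positive and 3 a more negative change under Di. The short promoter window held the core letters of the antioxidant response element, TGACNNNGC on either strand, in 5 of 21 available promoters of the called NRF2 targets (23.8%), beside 15.6% of the promoters of tested genes. This share was not particular to the list. It was 33.3% for the called ATF4 genes, 27.8% for the ER genes, 20.8% for the mitosis genes and 17.9% for the replication genes. The element is printed for 3 of the NRF2 target promoters, in capitals, to show the variable middle bases.
GCLM, chr1:93909436-93909484, minus strand: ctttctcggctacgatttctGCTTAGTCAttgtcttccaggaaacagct
TXNRD1, chr12:104215660-104215708, plus strand: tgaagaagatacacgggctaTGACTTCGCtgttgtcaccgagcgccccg
ME1, chr6:83431160-83431208, minus strand: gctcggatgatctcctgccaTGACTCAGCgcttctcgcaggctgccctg

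**Figure D4:**
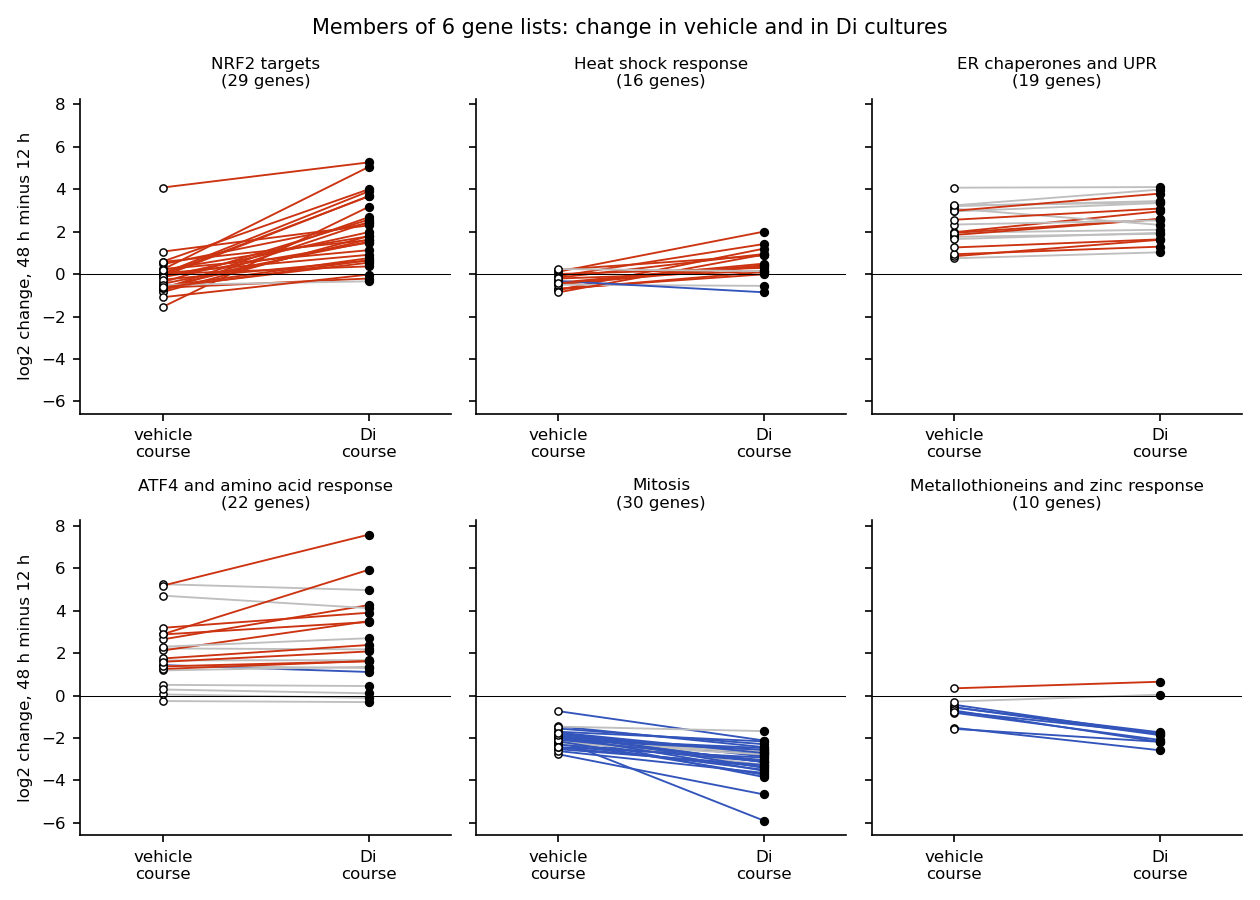
Log2 change from 12 h to 48 h in vehicle and under Di for every measured member of 6 lists, 1 line per gene; red lines mark a more positive and blue lines a more negative change under Di by the test of the difference, grey lines no call. The NRF2 lines are red for 28 of 29 genes and start from vehicle values between -1.55 and 4.08, 25 of 30 mitosis lines are blue, and 11 of 19 ER lines are grey.

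The opposite-direction genes with the largest differences began with 2 aldo-keto reductases. AKR1C1, a ketosteroid reductase, rose from 8.02, 8.16 and 8.11 to 11.38, 11.24 and 11.15 under Di and fell by 1.55 in vehicle, and AKR1C2 rose from 7.65, 7.82 and 7.67 to 10.90, 10.63 and 10.60 and fell by 1.31. Both were read by probe sets marked for possible cross-hybridisation, and the close relative AKR1C3 rose by 2.68 on another type of probe set. With no level filter, other probe sets of AKR1C1 and AKR1C2 took their place and gave 0.03 for each, not called. The heparan sulfate proteoglycan GPC1 (1.87 ± 0.111, vehicle -2.14), the ephrin receptor EPHB1 (1.66 ± 0.119, vehicle -1.97) and the stem cell factor KITLG (2.20 ± 0.0646, vehicle -1.36) followed. Membrane transporters were among the falls that were rises in vehicle. SLC4A4, the sodium-bicarbonate cotransporter of the proximal tubule, read 11.53, 11.47 and 11.55 at 12 h and 9.33, 9.15 and 9.43 at 48 h, and rose by 0.70 in vehicle. The GABA transporter SLC6A13, read by a cross-hybridising type of probe set, fell by 3.20 and rose by 0.80 in vehicle; with no level filter another probe set gave -0.14, not called. RASSF10 fell by 3.06, the small GTPase RERG by 2.34 and the basement membrane collagen COL4A4 by 2.17, each against a vehicle rise of 0.55 to 0.56.

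Among 15 measured kidney injury markers 3 rose and 7 fell, beside 31% and 34.3% of all genes, with a median change of -0.09. LCN2, or NGAL, rose from under the level filter (3.00, 3.06 and 3.05) to 6.69, 6.86 and 6.99, which was 3.81 ± 0.0889 beside 1.97 ± 0.0889 in vehicle. HAVCR1, the injury receptor known as KIM-1, fell from 10.48, 10.60 and 10.54 to 8.09, 8.56 and 8.32 (4.64-fold), while in vehicle it rose by 0.49 from 9.26, 9.72 and 9.18. At 12 h all Di arrays of HAVCR1 were above all vehicle arrays, and at 48 h all were below. The adhesion molecule VCAM1 fell by 4.19 under Di and was at -0.35 in vehicle, and the progenitor factor SOX9 fell by 2.35 and 1.93. SLC3A1, the subunit of the renal cystine transporter, fell from 8.16, 7.89 and 8.21 to 5.86, 6.10 and 5.92, with 0.12 ± 0.107 in vehicle, while DPP4 was at 0.06 ± 0.101. Of 3 measured genes of other segments AQP3 fell by 2.48, SCNN1A by 0.29, and AQP2 did not pass the test (0.01).

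Of 21 tight junction and adhesion genes 7 rose and 8 fell, shares near those of all genes (31% and 34.3%), with large changes in single members. Beside CLDN2 and CDH6 the junction adaptor CGNL1 fell by 3.26 and the kidney cadherin CDH16 by 1.33. OCLN, the transmembrane protein occludin, rose instead from 8.62, 8.76 and 8.82 to 11.01, 10.80 and 10.96 (4.55-fold), and CLDN4, a sealing claudin, rose 2.8-fold from 6.77, 6.79 and 6.78 to 8.01, 8.52 and 8.28. CDH1, or E-cadherin, did not pass the test (0.05 ± 0.266). The keratin KRT80 rose by 2.08, and KRT19 fell by 1.41.

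The 3 transcription factors SNAI2, ZEB1 and ZEB2, linked to mesenchymal change, rose within a list that mostly fell. Of 28 genes for TGF-beta, matrix and mesenchyme 15 fell and 8 rose under Di, beside 34.3% and 31% of all genes, with a median change of -0.44. In vehicle 16 fell and 1 rose, with a median of -0.42. By the test of the difference 10 had a more positive and 9 a more negative change under Di, beside 19.8% and 18.5% of all genes. SNAI2, or Slug, read 2.50, 2.52 and 2.50 at 12 h and 6.96, 7.19 and 6.84 at 48 h, with 0.01 ± 0.0868 in vehicle. ZEB1 rose by 1.15 ± 0.0621 and ZEB2 by 1.88 ± 0.34, the latter with early values spread from 3.15 to 4.47. TWIST1 fell by 1.54, and so did the matrix genes THBS1 (-2.88), MMP7 (-2.55), COL4A1 (-2.10) and COL1A1 (-0.64). The mesenchymal filament VIM was at -0.16, a call lost under 8 of 20 alternatives, including those without the early Di replicates 1 or 2 and the late Di replicates 2 or 3. The cadherin CDH2 fell by 1.09, and fibronectin FN1 rose by 0.34. The fibroblast proteoglycans DCN (-2.16) and LUM (-1.67) fell as well. In vehicle their means also fell, from 11.05 to 9.90 for DCN and from 9.39 to 8.19 for LUM. The summed level of the 9 fibroblast markers on the array went from 11.3 to 11.5 at 12 h to 9.36 to 9.63 at 48 h under Di. In vehicle this sum lay between 11.38 and 11.63 at 12 h and between 10.33 and 10.45 at 48 h. The part of these markers in the matrix changes was not tested.

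Growth factor and immediate early genes moved both ways in treated cells. Of 18 immediate early and AP-1 genes 9 rose and 6 fell, beside 31% and 34.3% of all genes. JUN rose by 2.01, FOSL1 by 1.90, KLF4 by 2.35 and the ERK phosphatase DUSP5 by 2.47, whereas EGR1 fell from 10.84, 11.12 and 10.98 to 8.11, 8.21 and 8.22 and DUSP6 fell by 2.54. In vehicle FOSL1 fell by 1.31, DUSP5 by 1.00, and EGR1 was at 0.02 ± 0.112. Of 8 genes of the EGF receptor family and its ligands 6 rose, led by the ligand BTC, which went from 4.05, 3.996 and 4.86 to 8.01, 8.29 and 8.23 (14.7-fold). The ligand EREG rose 3.36-fold and EGFR 2.81-fold, while the co-receptor ERBB2 fell by 1.35 and the ligand HBEGF by 0.38, the latter not called under 4 of 20 alternatives, among them those without the early Di replicate 2 or the late Di replicate 3. DKK1, a secreted Wnt inhibitor, rose from 2.54, 2.58 and 2.57 to 7.05, 7.12 and 6.94, with -0.02 ± 0.0639 in vehicle. It stood at the head of 16 measured YAP and Wnt genes, of which 8 rose and 3 fell; without the early Di replicate 2 a count of 5 fell.

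Of 20 p53 targets 11 rose and 3 fell, beside 31% and 34.3% of all genes. By the test of the difference 12 had a more positive and 2 a more negative change under Di, beside 19.8% and 18.5% of all genes. The cytokine GDF15 rose by 3.96 on a cross-hybridising type of probe set, GADD45A rose 6-fold, PHLDA3 by 2.13 and the death receptor TNFRSF10B by 1.97, while its ligand TNFSF10 fell from 11.83, 11.90 and 11.98 to 6.49, 6.18 and 6.70. Of 13 BCL2 family genes 7 rose and 3 fell under Di, and 6 rose and 3 fell in vehicle. For 6 the change was more positive under Di by the test of the difference, where 19.8% of all genes were. The BH3-only gene HRK was at 3.27 under Di, the anti-apoptotic BCL2L2 at 1.47 and BCL2L1 at 1.00. Of 16 heat shock genes 10 rose and 2 fell under Di, against 1 and 10 in vehicle, with DNAJB4 at 2.00, DNAJB1 at 1.42 and HSPH1 at 1.20. Of 23 autophagy and lysosome genes 15 rose and 2 fell under Di (1 without the early Di replicate 2 or the late Di replicate 3). In vehicle 10 rose and 5 fell, beside 21.9% and 31% of all genes, with a median of 0.19 against 0.44 under Di. Both courses were called in the same direction for 9 of the 23. The risers under Di included WIPI1 (7.75-fold), MAP1LC3B, the gene of an LC3 protein (4.17-fold), and the protease CTSL (3.63-fold). CTSL fell by 0.24 in vehicle.

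Metallothioneins, which bind zinc and copper, fell. All 7 measured metallothionein genes were lower at 48 h, from 1.73 for MT1H to 2.58 for MT1M on the log2 scale, and each fell more under Di than in vehicle, except that MT1G was -0.09 and not called on the probe set taken with no level filter. MT1M read 9.35, 9.18 and 9.27 and then 6.57, 6.70 and 6.79. The other 6 were read by probe sets open to cross-hybridisation, so the family members cannot be separated with certainty. The zinc importer SLC39A10 fell 4.53-fold, and the exporter SLC30A1 was the only riser of the 10 listed genes measured (1.57-fold). Of 26 proteasome genes 16 fell and 2 rose under Di, beside 34.3% and 31% of all genes, with a small median change of -0.33. In vehicle 22 fell and 0 rose, beside 31% and 21.9% of all genes, with a median of -0.50. By the test of the difference 8 had a more positive change under Di and 0 a more negative one, beside 19.8% and 18.5%. These counts were 7 and 2 with all probe sets averaged, and 5 and 0 with median centring. The risers under Di numbered 1 in 11 of the 12 fits without 1 array.

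The counts of the next lists stand beside 31% of all genes higher and 34.3% lower under Di. Among the metabolic lists, of 28 oxidative phosphorylation genes 22 fell and 1 rose (ATP5F1C, 0.62), with a median of -0.29 in both courses. The ATP5F1C rise was not called without the late Di replicate 3, turned when all its probe sets were averaged, and stood against 3 other probe sets called in the opposite direction. Of 23 sterol and fatty acid genes 15 fell and 4 rose, with the elongase ELOVL6 at -2.08 and the regulator SREBF1 at -1.88. Glycolytic enzymes such as LDHA (-1.16) and TPI1 (-1.12) fell, while the hypoxia-linked NDRG1 rose 14.8-fold, ADM 5.33-fold and the glucose transporter SLC2A1 3.33-fold. In this hypoxia and glycolysis list 8 of 26 rose and 13 fell, and its median of -0.16 was 0.03 when all probe sets of a gene were averaged. Of 6 alpha-arrestin and glucose response genes 3 fell, TXNIP, ARRDC3 (-1.88) and ARRDC1 (-0.48), and none rose; without the early Di replicate 2 a count of 1 rose. Of 6 genes linked to the aryl hydrocarbon receptor CYP1B1 fell, from 9.58, 9.63 and 9.55 to 4.97, 5.56 and 5.92, while AHR rose by 0.46, a call that was lost when the early Di replicate 2 (0.24), the late Di replicate 2 (0.41) or the late Di replicate 3 (0.45) was left out, with no level filter and with the Di arrays fitted alone. Of 16 ribosome biogenesis genes 6 fell and 3 rose, with a median of -0.04, which was 0.01 when each array was centred on its median.

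Of 14 NF-kB and cytokine genes 4 rose and 6 fell, beside 31% and 34.3% of all genes, with the chemokine CXCL8 higher (1.38) and CCL2 lower (-2.45). Of 17 interferon response genes 4 rose and 7 fell, with the factor IRF1 higher (2.68) and IFI44 (-2.83) and IFIT1 (-2.25) lower.

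A last set of genes moved in vehicle and was not called under Di. The cyclin CCND1, which drives entry into the cycle, read 6.55, 6.13 and 6.71 at 12 h and 6.50, 6.52 and 6.58 at 48 h under Di, and fell by 1.42 ± 0.135 in vehicle (adjusted p of the difference 0.000132). The basement membrane protein NID1 (-0.09 ± 0.186, vehicle -1.69), the guanylate-binding GBP1 (0.19 ± 0.136, vehicle -1.26), AFAP1L2 (0.14 ± 0.25, vehicle -1.37) and DRC9 (0.80 ± 0.387, vehicle -1.01) were of the same kind. On the other side the clock gene PER2 was at 0.27 ± 0.169 under Di and rose by 2.17 in vehicle, and the adaptor BLNK was at -0.64 ± 0.265 and rose by 2.79. OVGP1 (-0.01 ± 0.199, vehicle 2.24) and the cytokine IL7 (-0.54 ± 0.328, vehicle 1.35) behaved likewise. ZNF652 was at -0.02 ± 0.197 under Di and rose by 2.11 in vehicle, but its 12 h values already differed, at 8.85, 8.43 and 8.81 under Di and 7.31, 7.20 and 6.80 in vehicle. Without replicate 2 of Di at 12 h the falls of BLNK (-0.90) and IL7 (-0.93) under Di were called, and without replicate 1 of Di at 48 h the rises of DRC9 (1.07) and PER2 (0.43) were.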

How the data were processed

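RNA was hybridised to Affymetrix human arrays. The deposited log2 values were made by the authors with GCRMA, per the submitters' processing notes (version and reference build not given in the sources used here), and were not normalised again. Of 54675 probe sets 62 controls were left out. A probe set was kept if 3 or more arrays read over 4 on the log2 scale (21715, of which 18957 had 1 gene symbol), and the brightest stood for each gene. Probe sets ending in _x_at, which can cross-hybridise, were used for the 355 genes with no other. Of all probe sets 41097 had 1 symbol, 1801 several and 11777 none.

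limma 3.58.1 in R 4.3.3 (lmFit, eBayes) was fitted to all 12 arrays with 1 mean per group. The tests were Di 48 h minus 12 h, vehicle 48 h minus 12 h, and their difference, two-sided, with Benjamini-Hochberg adjustment over 10626 genes and a threshold of 0.05. Errors are SEs of the fit unless called SD. Single values were compared by exact permutation.

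The genes, lists and naming rule were chosen with earlier results of these data known. The rule named the 12 largest changes in each direction whose values did not overlap, the 5 largest in each direction of the opposite, shared and vehicle-side classes, up to 4 leading called members per list, preset injury and stress genes, and the cell markers. Other list members were named with their values in view. The ERSE motif was added after seeing the data. With it an amino acid response motif, TGATGCAA, was searched, found in 1 of 15 available promoters of called ATF4 genes. The fit was tested on simulated data. Alternatives covered the filter, scaling, moderation, probe set choice, arrays fitted, a replicate block and leaving out each array. Figures were drawn with matplotlib in Python 3.11.15.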

Additional observations from a re-analysis of the deposited data

Results flagged for a closer look

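For the 44 genes below the change from 12 h to 48 h under Di differed from that in vehicle by limma's test of the difference itself, with Benjamini-Hochberg adjustment over 10626 genes; they are those named for the largest changes, for the course classes or in advance, and other list members with a called difference are in the report. The values below are the Di change minus the vehicle change on the log2 scale. Among the stress and antioxidant genes they were 2.40 for ATF3, 2.49 for LAMP3, 3.04 for STC2, 1.18 for SLC7A11, 4.83 for HMOX1, 4.71 for AKR1C1, 4.31 for AKR1C2 and 1.33 for CDKN1A. Other genes that rose more under Di were NMRAL2P (5.30), MAP2 (5.29), SNAI2 (4.48), CLIP4 (3.23) and BEX2 (0.52). The early Di means of LAMP3, STC2, NMRAL2P, SNAI2 and CLIP4 lay under the level filter, so the sizes of their differences are not measured. GPC1 (4.01), EPHB1 (3.62) and KITLG (3.56) rose under Di and fell in vehicle.

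Of the genes that fell more under Di, the adhesion and secreted proteins had differences of -5.50 for CLDN2, -4.07 for TNFSF10, -3.38 for CDH6, -3.35 for DEFB1 and -2.80 for CTHRC1. The proliferation genes had -3.82 for KIF20A, -2.88 for RRM2 and -1.99 for ASF1B, and the remainder -3.85 for FRMD4B, -3.10 for SLC38A11 and -2.85 for LRRN4. The late Di means of CLDN2, CTHRC1, KIF20A, ASF1B, FRMD4B and SLC38A11 lay under the level filter, so the sizes of their differences are not measured. For TXNIP the fitted difference was 0.80, but both late means lay under the level filter, so its size is not measured. SLC6A13 (-3.999), RASSF10 (-3.61), SLC4A4 (-2.92), RERG (-2.88), COL4A4 (-2.73) and HAVCR1 (-2.70) fell under Di and rose in vehicle.

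Genes that moved in vehicle and were not called under Di had differences of 1.81 for DRC9, 1.59 for NID1, 1.51 for AFAP1L2, 1.48 for CCND1 and 1.45 for GBP1 where vehicle fell. Where vehicle rose they had -3.42 for BLNK, -2.25 for OVGP1, -2.13 for ZNF652, -1.90 for IL7 and -1.89 for PER2.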

How the results depend on the processing

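The counts of called genes, the Di course of 172 genes named by rule and the difference of courses of 54 of them were recomputed under 20 alternatives, 12 of which left out 1 array (19 for the difference; 161 of the 172 genes at a floor of 6). Motif counts, marker sums and RNA gaps were not. No count of called genes or of a course class moved by more than 1.5 times: genes called for the Di course numbered 6244 to 6981 over the other alternatives and 6493 to 6960 without 1 array, those for the difference of courses 3637 to 4172 and 3555 to 4418, and opposite-direction genes 346 to 431 and 305 to 464. Centring each array on its median raised the share of Di calls that were higher from 47.5% to 50.9%. Replicate numbers were not treated as pairs. Same-numbered deviations at 12 h and 48 h under Di correlated at -0.32, -0.19 and 0.17, and different-numbered ones between -0.26 and 0.35. With 3 arrays per group these values cannot decide whether the samples were paired. A replicate block left 6707 genes called, 6677 of them shared, and none of the 172 changed its call. RFC5, PRDX1 and VIM, named outside the rule, lost their call with this block, as did the differences of courses of PHGDH, PCNA, RFC5 and ERBB2. Of the 172 genes 150 kept direction and call throughout. With no filter AKR1C1, AKR1C2, SLC6A13 and MT1G lost their call, since another probe set was taken, and AHR lost it too; SCNN1A and KRT8 lost it under other settings. DRC9, GBP1, BLNK, IL7, PER2 and ACTA2 gained a call. Directions turned for 9 genes, 8 of them not called for the Di course. By setting, these were NID1 (0.0193) and CCND1 (-0.11) with all probe sets averaged, OVGP1 (0.0375) and ZNF652 (0.0199) with median centring, OVGP1 (0.0462) with quantile normalisation and H2AJ (0.0422) with no filter. Without 1 array the changes ranged from -0.32 to 0.0404 for NID1, -0.14 to 0.37 for AFAP1L2, -0.10 to 0.19 for CCND1, -0.25 to 0.15 for OVGP1, -0.16 to 0.18 for ZNF652, -0.12 to 0.17 for AQP2, -0.28 to 0.30 for CDH1 and -0.26 to 0.0225 for EPCAM. Differences of courses that were never far from 0 also turned: SDF2L1 (-0.0144 with median centring, -0.0697 with quantile normalisation, -0.0697 to 0.19 without 1 array), MMP1 (-0.0347, -0.0597, and -0.13 to 0.15), ERO1B (-0.0552 to 0.48), TNFAIP6 (0.0928 with all probe sets averaged, -0.46 to 0.0128) and SCN3A (-0.31 to 0.0884). The cause of these turns was not tested. The TXNIP difference lost its call with all probe sets averaged (0.36), with no filter (0.80) and without replicate 3 of Di at 12 h (0.68), replicate 2 of vehicle at 12 h (0.72) and replicates 1 (0.65) or 3 (0.73) of vehicle at 48 h.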
